A study of Sus scrofa with 23 samples.

Results

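SP110 and SP140L are speckled protein genes, and their expression was followed pig by pig in the backfat of 23 fattening pigs. They are 2 of the 25322 gene identifiers counted in each pig: SP110 is ENSSSCG00000016261 and SP140L is ENSSSCG00000016263. Both were chosen by measured values: the study's tests on these same pigs had called them higher with cDDGS. Their differences from the group without cDDGS are therefore given as a description, with no test. Values that did not enter that choice were tested: the comparisons among the cDDGS groups, the comparison of the sexes, and the way the genes varied together within a diet.

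The pigs were crossbred fatteners from Polish Landrace × White Large Polish sows and a Duroc × Pietrain boar, and both gilts and barrows were used. The study asked how corn dried distillers grains with solubles (cDDGS), the dried maize residue of ethanol production, and the added fat change gene expression in backfat, the subcutaneous fat of the back. Group I (-cDDGS+rapeseed oil) held 7 pigs, group II (+cDDGS+rapeseed oil) 6 pigs, while 5 pigs made up group III (+cDDGS+beef tallow) and another 5 pigs group IV (+cDDGS+coconut oil). In all there were 12 females and 11 males. No group received beef tallow or coconut oil without cDDGS, and the diet of group I also held less crude fat and fiber and more starch, so cDDGS itself and these differences cannot be told apart. The feeds were otherwise formulated to equal protein and energy, and fattening ended at slaughter weight.

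Speckled proteins are nuclear proteins that gather in or beside PML nuclear bodies, small dots in the cell nucleus. The human family consists of SP100, SP110, SP140 and SP140L, whose genes lie side by side, and interferons induce several of them. The proteins share an N-terminal domain through which they associate and a SAND domain, found in DNA-binding regulators, and several also carry a PHD finger and a bromodomain, which read histone marks. They are best known from leukocytes: inherited loss of SP110 causes an immunodeficiency with liver disease in humans, SP140 is a chromatin reader of macrophages and lymphocytes, and SP140L is a less studied relative of SP140.

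The name SP140L is less certain than SP110. The reference list of symbols named 11804 of the 25322 identifiers and held SP110 but not the other identifier, which the study's own tables call SP140L in one place and SP100 in another. In the RefSeq order of genes on the Sscrofa11.1 assembly, SP110 was followed by a pseudogene, SP140, a long noncoding RNA and the uncharacterized LOC100517129. The annotated spans of SP110 and SP140 overlapped. No identifier in the counted annotation was paired with the symbol SP140, and since most identifiers carry no symbol, an unnamed identifier may be SP140. Reads that aligned to several places were not counted, so stretches that these relatives share would be undercounted, and reads of a transcript on the opposite strand cannot be told apart because the strand setting of the counting is not given in the sources used here.

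The depth, as reads assigned to genes, lay between 2437172 and 7979426 (median 4717511). The adipocyte markers showed the labelled tissue: the 5 of 10 listed markers that had an identifier, among them PLIN1, the coat protein of lipid droplets, summed to between 1907 and 3368 counts per 1e+06 reads (CPM) in every pig. All levels below are CPM, TMM-normalized counts scaled to libraries of equal size, and they are not divided by gene length. ACTA1, the actin of skeletal muscle, ranged from 0.891 to 1566 CPM between pigs, and its part in the results was not tested. SP110 received from 43 to 170 reads in a pig (2236 over all pigs) and SP140L from 94 to 317 (4632 over all pigs). Both were expressed at a middle level, SP110 above 62% and SP140L above 78.1% of the 11039 genes kept by the low-count filter over all pigs.

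SP110 had its lowest median and its smallest SD in group I, where it ranged from 11.8 to 17.6 CPM with a median of 17.2. In group II it ranged from 14.1 to 28.7 CPM with a median of 26.0. In group II, 5 of the 6 pigs lay above every pig of group I, and pig 21, a female with 14.1 CPM, lay inside the range of group I. SP110 in the pigs of group III was 26.1, 23.3, 11.6, 22.9 and 26.8 CPM for pigs 41, 43, 45, 46 and 48. Of these, 4 exceeded every pig of group I, whereas pig 45, a male, was below all of them. The pigs of group IV had 30.7, 33.0, 21.0, 31.8 and 19.0 CPM for pigs 49, 52, 53, 54 and 55, so all 5 were above group I and pig 55 by the smallest margin.

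**Figure D1:**
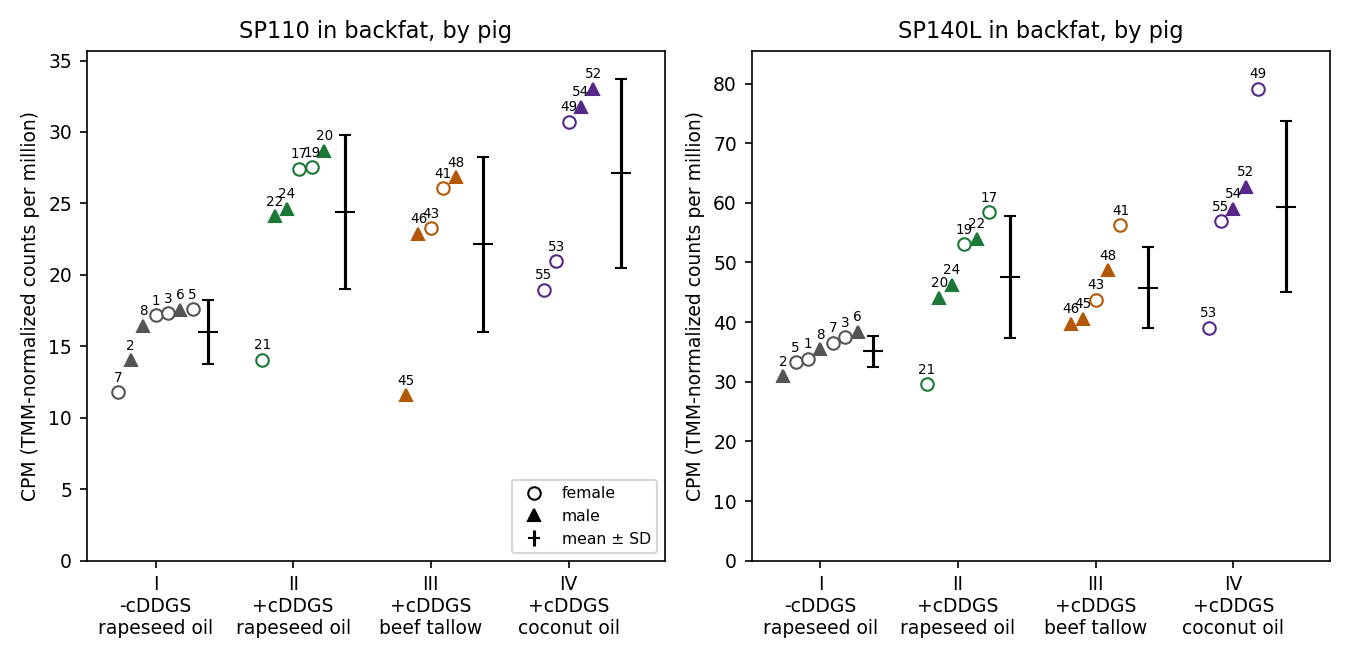
Expression of SP110 (left) and SP140L (right) in CPM on the vertical axis, with 1 point per pig labelled by its pig number, open circles for females, filled triangles for males and black bars for the mean ± SD of each dietary group. All 5 pigs of group IV lie above all 7 pigs of group I for both genes, while pig 21 of group II lies with group I for both and pig 45 of group III only for SP110.

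SP140L showed a similar order of the groups. In group I it ranged from 30.9 to 38.4 CPM with a median of 35.5, and in group II from 29.6 to 58.4 CPM with a median of 49.6. Again 5 of the 6 pigs of group II were above group I, and pig 21 was the exception, here below the lowest pig of group I. In group III SP140L was 56.2, 43.8, 40.6, 39.8 and 48.7 CPM for pigs 41, 43, 45, 46 and 48, and all 5 pigs were above group I. The pigs of group IV had 79.2, 62.7, 39.1, 59.0 and 56.9 CPM for pigs 49, 52, 53, 54 and 55. All of them were above group I as well, pig 53 by the smallest margin, and pig 49, a female, had the highest level of all 23 pigs.

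Complete separation from group I was uncommon among all genes: every pig was higher in 0.203% of 10323 genes for group II, in 0.211% of 10423 genes for group III and in 0.424% of 10388 genes for group IV. SP110 was separated in this way in group IV and SP140L in groups III and IV. These shares give the background only, since the genes were picked for this contrast.

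On average SP110 was 16.0 ± 2.23 CPM (SD, n = 7) without cDDGS, and 24.4 ± 5.37 (n = 6), 22.1 ± 6.14 (n = 5) and 27.1 ± 6.60 (n = 5) in groups II, III and IV. SP140L averaged 35.1 ± 2.61 CPM (SD, n = 7) without cDDGS, and 47.5 ± 10.3 (n = 6), 45.8 ± 6.80 (n = 5) and 59.4 ± 14.3 (n = 5) in groups II, III and IV. For both genes the means therefore rank I, III, II and IV from low to high. Groups III and II, and groups II and IV, are neighbours in this order whose means lie within the spread of single pigs.

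In edgeR's fit the log2 difference of SP110 from group I was 0.63 (SE 0.16), 0.47 (SE 0.19) and 0.77 (SE 0.16) for groups II, III and IV. For SP140L it was 0.46 (SE 0.14), 0.38 (SE 0.11) and 0.77 (SE 0.14) in the same order. As ratios, SP110 was 1.55-fold, 1.38-fold and 1.70-fold and SP140L 1.38-fold, 1.3-fold and 1.70-fold the level of group I. With the 16 pigs of groups II, III and IV combined, the log2 difference was 0.63 (SE 0.16) for SP110 and 0.54 (SE 0.13) for SP140L. These comparisons share the pigs of group I and are not independent of each other.

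Whether the genes counted as DEGs, with the study's limits of 0.05 on the adjusted p-value and 1.3 on the fold change, depended on the tool. With edgeR's quasi-likelihood test on all pigs neither was called in any of these comparisons, where 0.0291% of all tested genes were called for group II and 0% for group III, for group IV and for the combined groups. The edgeR counts were 3, 0, 0 and 0 genes, with 1338, 830, 1475 and 1695 genes at an unadjusted p-value under 0.05. Single pigs turned these calls. Without pig 53 edgeR called 116 genes in group IV, where 10388 were tested with all pigs. Without pig 21 it called 39 in the combined groups, where 10749 were tested with all pigs. SP110 and SP140L were among them in both cases, but no other fit with 1 pig left out called either gene. In the combined groups edgeR called 43 genes without pig 1, 29 without pig 53, 28 without pig 48 and 25 without pig 3. Neither SP110 nor SP140L was among those. DESeq2, the tool of the study, called SP110 higher in group II, in group IV and in the combined groups, and SP140L higher in group IV and in the combined groups. The share of all genes that DESeq2 called higher was 0.547% for group II, 0.0392% for group III, 1.18% for group IV and 1% for the combined groups. Since the study's calls chose the genes, these counts say how the calls depend on the tool and on single pigs and nothing more about the genes.

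The spread between pigs was also larger in the cDDGS groups, for SP110 in groups II and III largely through 1 low pig each. The coefficient of variation of SP140L was 7.44% in group I and from 14.9 to 24.2% in groups II, III and IV, and that of SP110 was 14.0% in group I and from 22.0 to 27.7% in the others. Set against the variance that counting alone gives at this depth, the variance of SP140L was 0.848 times that value in group I, so its pigs spread no more than read sampling would spread them. The same ratio was 8.42, 4.35 and 18.0 in groups II, III and IV. For SP110 it was 1.42 in group I and 4.48, 7.68 and 7.20 in groups II, III and IV. The spread belongs to the same contrast with group I and was not tested.

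Among the groups that all received cDDGS, the added fat was the only planned difference, and here the contrasts had not chosen the genes. From group II to group III, from rapeseed oil to beef tallow, the log2 difference was -0.16 (SE 0.22, 95% interval -0.64 to 0.31) for SP110 and -0.08 (SE 0.17, 95% interval -0.43 to 0.28) for SP140L. Adjusted p-values of edgeR's quasi-likelihood test with Benjamini-Hochberg adjustment were 0.96 and 0.98. Both intervals hold 0.

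Group IV, with coconut oil, had the highest level of both genes, but its difference from the other cDDGS groups did not pass the test. Against group II the log2 difference was 0.12 (SE 0.20, 95% interval -0.31 to 0.55) for SP110 and 0.29 (SE 0.19, 95% interval -0.11 to 0.70) for SP140L (edgeR adjusted p = 0.993 and 0.99). Against group III it was 0.30 (SE 0.23, 95% interval -0.20 to 0.80) for SP110, with an edgeR adjusted p of 0.997. SP140L was 0.39 higher than in group III on the log2 scale (SE 0.18, 95% interval 0.01 to 0.77). In edgeR's test this gave an unadjusted p of 0.0469 and an adjusted p of 0.997, so it did not hold after adjustment, and 4.12% of 10230 genes had an unadjusted p-value under 0.05 there. Of the 5 pigs of group IV, 4 were above every pig of group III for SP140L and pig 53 was below all of them. With DESeq2 the unadjusted p for SP140L was 0.0489 and the adjusted p 0.998.

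Neither gene was called in these comparisons by edgeR, and neither was any other gene (0% of 10410, 10062 and 10230 genes). At an unadjusted p-value under 0.05 there were 647 genes for group III against II, 502 for group IV against II and 421 for group IV against III. DESeq2 called 29, 2 and 0 genes (0.301%, 0.0116% and 0%), and neither SP110 nor SP140L was among them.

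**Figure D2:**
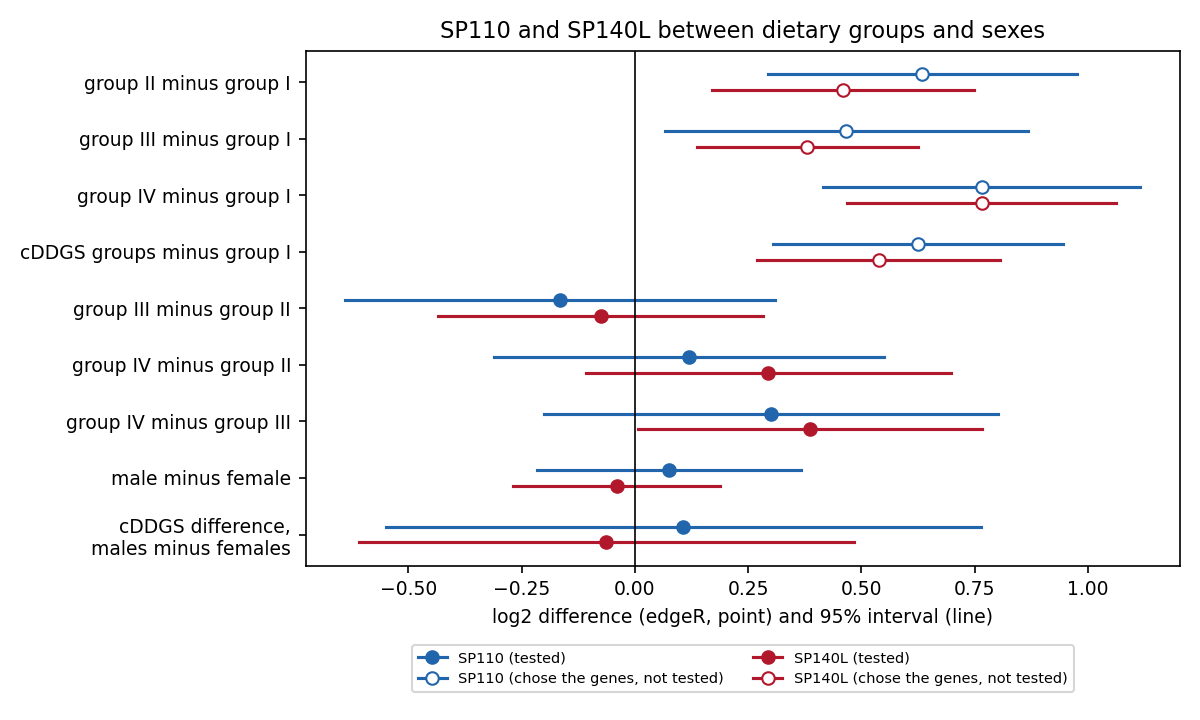
Log2 difference of SP110 (blue) and SP140L (red) from edgeR's fit on the horizontal axis, with the 95% interval as a line, for each comparison named on the vertical axis. Open points mark the comparisons with group I, which chose the genes and were not tested; of the filled points, only SP140L between groups IV and III has an interval above 0 before adjustment over all genes (0.01 to 0.77).

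The levels of both genes overlapped between females and males. In group I, SP110 averaged 16.0 ± 2.79 CPM (SD, n = 4) in females and 16.0 ± 1.81 (SD, n = 3) in males. SP140L averaged 35.3 ± 2.01 CPM in these females and 34.9 ± 3.79 in these males. In the cDDGS groups, SP110 averaged 23.6 ± 5.43 CPM (SD, n = 8) in females and 25.4 ± 6.67 (SD, n = 8) in males, and SP140L 52.0 ± 14.9 and 49.4 ± 8.46.

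With diet in the model, the log2 difference between males and females was 0.08 (SE 0.14, 95% interval -0.22 to 0.37, edgeR adjusted p = 0.809) for SP110. For SP140L it was -0.04 (SE 0.11, 95% interval -0.27 to 0.19, edgeR adjusted p = 0.876). Neither gene was called, while 98 of 10276 genes (0.954%) were. Males minus females, the log2 difference between cDDGS-fed pigs and group I differed by 0.11 (SE 0.32, 95% interval -0.55 to 0.76) for SP110 and by -0.06 (SE 0.27, 95% interval -0.61 to 0.48) for SP140L, both with an edgeR adjusted p of 1. No gene was called for this interaction by edgeR (0% of 11466 genes, 416 at an unadjusted p-value under 0.05), and DESeq2 called 3 (0.0162%), neither SP110 nor SP140L.

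The relation between the genes within a pig was examined through the ratio of their counts. Because gene lengths were not taken into account, the ratio does not compare their abundance, but its change from pig to pig can be read. The log2 ratio of SP140L to SP110 averaged 1.14 ± 0.23 (SD, n = 7) without cDDGS, and 0.96 ± 0.19 (n = 6), 1.09 ± 0.41 (n = 5) and 1.13 ± 0.32 (n = 5) in groups II, III and IV. Over all pigs it ran from 0.62 to 1.8.

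The ratio did not differ beyond its spread in any of the 4 comparisons tested. It was 0.13 higher in group III than in group II on the log2 scale (exact permutation test over 462 regroupings, p = 0.597). Group IV exceeded group II by 0.17 (exact permutation test, p = 0.325) and group III by 0.04 (exact permutation test, p = 0.865), and males differed from females by -0.10 (permutation test with 1e+05 resamples, p = 0.451). All tests were two-sided, and the Benjamini-Hochberg adjusted values were 0.797, 0.797, 0.865 and 0.797. Against group I the differences, given as a description, were -0.18, -0.05 and -0.01 for groups II, III and IV.

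**Figure D3:**
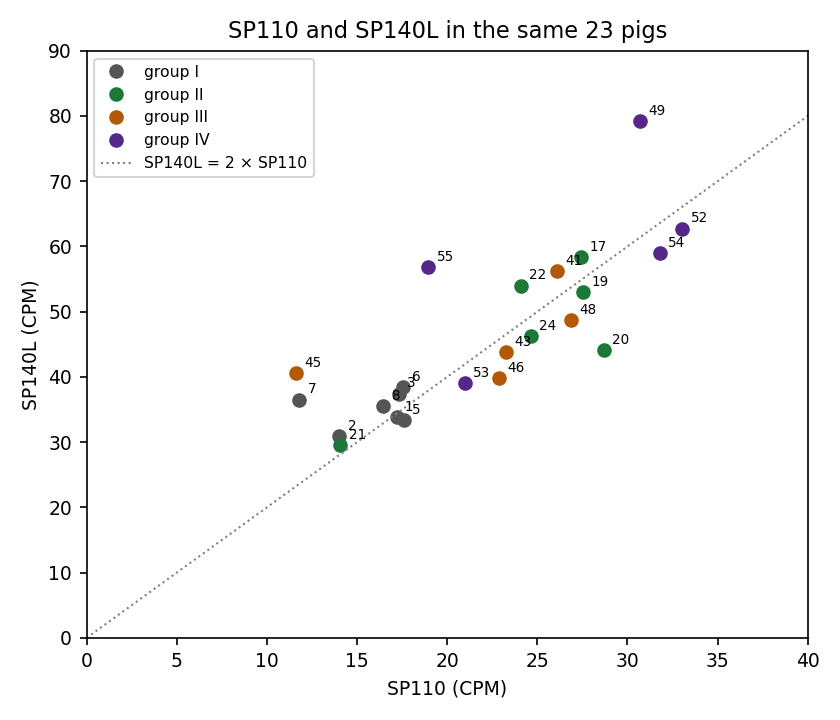
SP140L in CPM on the vertical axis against SP110 in CPM on the horizontal axis, with 1 point per pig coloured by dietary group and labelled by pig number, and a dotted line where SP140L is 2 times SP110. Pigs 7 and 45 lie above the line at low SP110, pig 55 lies far above it, and pig 20 lies below it; the pigs of group I form the most compact cloud.

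Within a diet, pigs with more SP110 tended to have more SP140L, but a single pig carried much of the relation. After each group's mean was taken away, Pearson's r on log2(CPM + 0.5) was 0.626 over the 23 pigs (permutation within groups, p = 0.00717) and Spearman's rho 0.553 (p = 0.0158). Adjusted over the 3 relations examined, these p-values were 0.0215 and 0.0474. Without pigs 45 and 21, the farthest from the median of SP110, r was 0.469 (p = 0.137, permutation), so the relation no longer passed the test. It rests on pig 21: leaving out this pig alone gave r = 0.461 (p = 0.0913, permutation), whereas r was 0.678 without pig 45 alone.

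In group I alone, r was 0.159 (exact permutation test, p = 0.71, n = 7) and rho 0.179 (p = 0.713), with an r of 0.0882 without pigs 7 and 2. In group II alone, r was 0.862 (exact permutation test, p = 0.103, n = 6) and rho 0.143 (p = 0.803), with an r of 0.541 without pigs 21 and 20. The adjusted values were 0.71 and 0.803 for r and rho in group I and 0.154 and 0.803 in group II. Groups III and IV, with 5 pigs each, were not examined alone.

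Each gene had closer companions than the other. Ranked by r over the 23 pigs with the group means removed, the genes most like SP110 among 11038 were TCF7L2, a transcription factor of the Wnt pathway (r = 0.884), CDK5RAP2, a centrosome protein (0.848), BICD2, a dynein adaptor (0.803), the unnamed ENSSSCG00000024123 (0.782) and RILPL1, a protein of the centrosome and cilium (0.776). SP140L stood at place 176 of that list. For SP140L the nearest were RBM41, an RNA-binding protein (0.812), TAF15, an RNA-binding protein of transcription complexes (0.81), NOL8, a nucleolar protein (0.803), RAD50, a DNA repair protein (0.784), and ND3, a mitochondrial subunit of complex I (0.784). SP110 stood at place 141 of that list. These ranks describe 23 libraries whose depth and composition all genes share, and carry no test.

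The remaining family relations could be followed only in part. Of the other SAND domain genes, DEAF1, a transcription regulator, had 16.6 CPM on average and a log2 difference from group I of 0.01 in the combined groups, and AIRE, which drives the display of tissue antigens in the thymus, averaged 0.0566 CPM and was too low to test. The nearest genes with a paired identifier on either side of SP110 had values near 0. SLC16A14, CAB39 and ITM2C had 2, 4 and 5 annotated genes between them and SP110. The genes directly beside SP110 were not paired with an identifier and could not be followed. In the combined groups the log2 difference was 0.00 (SE 0.27) for SLC16A14, a transporter of the monocarboxylate family, and -0.02 (SE 0.09) for CAB39, an activator of the kinase LKB1. For ITM2C, a membrane protein, it was 0.00, and the edgeR adjusted p-values of these 3 neighbours were 0.95 or higher. FBXO36, next beyond SLC16A14, had at most 3 reads in any pig.

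The list of PML nuclear body genes held 8 members with an identifier, of which 7 were tested. None passed edgeR's test in any comparison with group I, and their median log2 difference was 0.10, 0.08 and 0.16 in groups II, III and IV. PML itself, the scaffold of these bodies, differed by 0.51 in group IV (edgeR adjusted p = 0.353). ATRX and CREBBP, a chromatin remodeller and an acetyltransferase and the most abundant of the list, differed by 0.25 and 0.22 (edgeR adjusted p = 0.443 and 0.408). The medians over all genes tested were within 0.02 of 0 in these comparisons.

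Genes that type I interferon induces, the signal that also induces speckled proteins, varied more between the groups. Of the 43 genes listed, 34 had an identifier and 28 were tested against each group, and none was called by edgeR. Their median log2 difference from group I was 0.21 in group II (19 of 28 higher), 0.01 in group III (15 of 28) and 0.40 in group IV (25 of 28). In group IV the median rested on pig 49: its interferon genes summed to 1454 CPM, while the other pigs of group IV had 568 to 630 CPM and group I had 553 to 752 CPM. Without pig 49 the list's median was -0.03 in group IV, with 12 of 28 genes higher than in group I.

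Without that pig, the differences of SP110 and SP140L from group I were 0.72 (SE 0.18) and 0.64 (SE 0.13) on the log2 scale, in place of 0.77 for both. With that pig included, MX1 and RSAD2, antiviral effectors, had log2 differences of 1.07 and 1.55 in group IV (edgeR adjusted p = 0.22 and 0.261). Their levels in group IV varied widely, at 42.0 ± 37.3 and 20.7 ± 30.1 CPM (SD). Their differences without that pig are not given here. SAMD9, an antiviral factor, and STAT2, a transcription factor of the interferon response, were the most abundant of the list. They differed by 0.05 and -0.28 in group IV, also with that pig included. TRIM25, a ubiquitin ligase of the viral RNA response, differed by 0.75 in the combined groups (edgeR adjusted p = 0.0668, DESeq2 adjusted p = 0.00657). It was the only member of the list that DESeq2 called there, beside 1% of 9903 genes called higher.

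From pig to pig, no relation between the interferon genes and the speckled protein genes passed the test. With group means removed, the mean log2 level of 29 of them had an r of 0.0854 with SP110 (permutation p = 0.842) and 0.356 with SP140L (permutation p = 0.27). Without pigs 49 and 41, r was -0.32 and -0.34. These are 2 of 22 relations with list levels, depth and reads outside genes, none of which passed after adjustment: the smallest p was 0.044, for the PML nuclear body list with SP110 (r = 0.48, adjusted p = 0.781).

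The 7 tested genes that interferon gamma induces had medians of 0.04, -0.03 and 0.12 in groups II, III and IV, with 0 called by edgeR. The most abundant were JAK2, a kinase of cytokine receptors, and GBP2, a guanylate-binding protein, which differed by -0.04 and 0.20 in the combined groups. DESeq2 called 1 of the 7, the transcription factor IRF1, lower in group III, where 0.0628% of all genes were called lower. Its log2 difference there was -0.83 in edgeR's fit. Medians for the 3 tested receptor and kinase genes, IFNGR1, JAK1 and TYK2, were 0.15, -0.04 and 0.03, and neither edgeR nor DESeq2 called any of them.

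**Figure D4:**
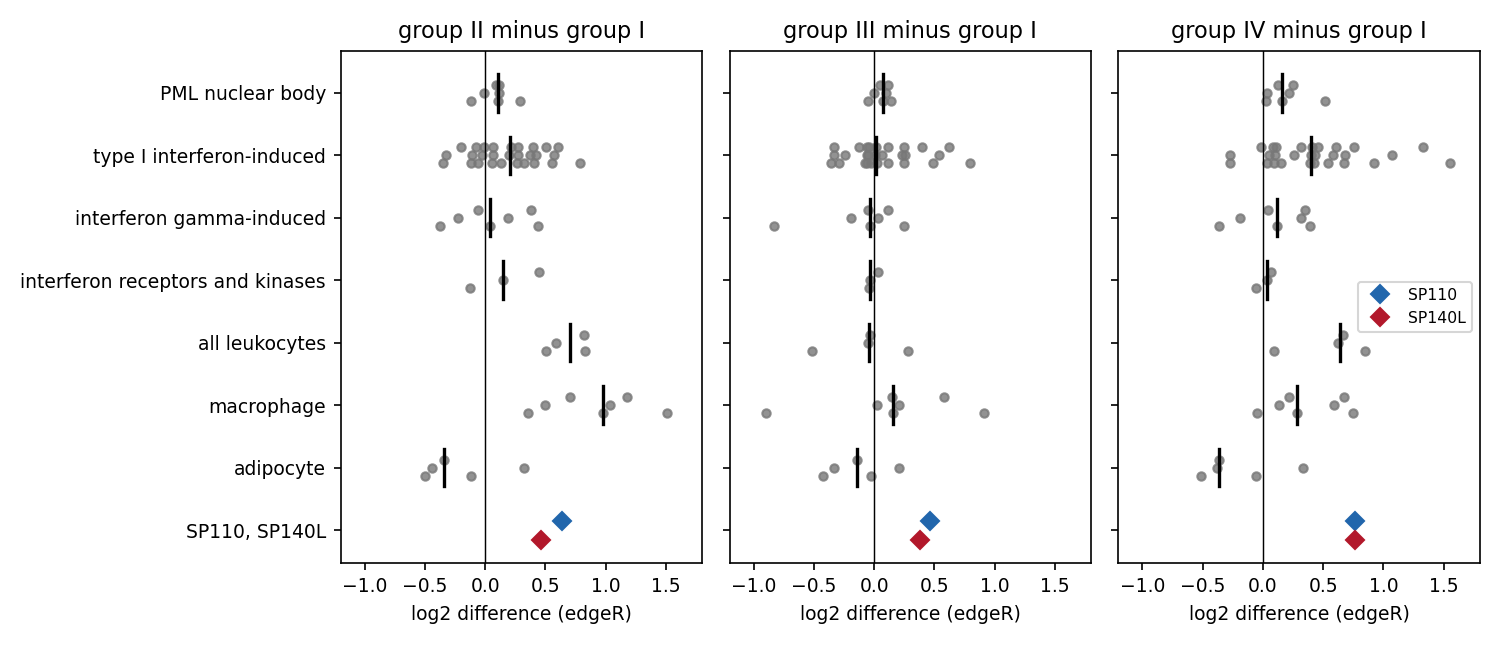
Log2 difference from group I (horizontal axis, edgeR) in groups II, III and IV for the tested genes of each list named on the vertical axis, with 1 grey point per gene, a black bar at the list's median and diamonds for SP110 and SP140L. SP110 and SP140L lie to the right of 0 in all 3 panels. The medians of the leukocyte and macrophage lists are 0.71 and 0.98 in group II, -0.04 and 0.16 in group III and 0.64 and 0.28 in group IV. In group III single macrophage genes range from -0.90 to 0.91.

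In bulk tissue, more cells of a type and more RNA per cell cannot be told apart, and markers of leukocytes differed between the groups too. The 4 general leukocyte genes with an identifier, among them PTPRC, which encodes CD45, and LCP1, an actin-bundling protein of blood cells, had median log2 differences of 0.71, -0.04 and 0.64 in groups II, III and IV. For the 7 macrophage markers tested, of 8 with an identifier and 13 listed, the medians were 0.98, 0.16 and 0.28. Summed macrophage markers ranged from 45.7 to 185 CPM in group I, 169 to 363 CPM in group II, 77.2 to 220 CPM in group III and 86.3 to 207 CPM in group IV. These sums had their highest median in group II. MRC1, the mannose receptor, and C1QA, a complement chain made by macrophages, differed by 1.18 and 1.51 in group II. None of the leukocyte and macrophage genes was called by edgeR against group I, while DESeq2 called 3 of them higher in group II (C1QA, MRC1 and PTPRC), 1 in group IV (PTPRC) and 1 in the combined groups (C1QA), beside 0.547%, 1.18% and 1% of all genes.

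Lymphocytes left little trace. Of the B cell markers, 3 of 6 had an identifier, none was high enough to test, and the most abundant, MS4A1, averaged 0.447 CPM. The 9 T and NK cell markers summed to at most 23.8 CPM in any pig, and the only one tested, CD2, differed by -0.10, -0.29 and 0.10 in groups II, III and IV. With group means removed, the macrophage list had an r of -0.18 with SP110 and -0.13 with SP140L, and the leukocyte list -0.16 and -0.26, none of which passed the permutation test (p = 0.371, 0.538, 0.463 and 0.29). The part of these cells in the difference of SP110 and SP140L was otherwise not tested.

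Most adipocyte markers ran the other way, while PPARG had log2 differences of 0.33, 0.20 and 0.34 in groups II, III and IV. Of the 5 tested, 4 had a negative log2 difference in each of the groups II, III and IV, with medians of -0.34, -0.14 and -0.36, and none was called by edgeR. PLIN1 and LIPE, the hormone-sensitive lipase and the next most abundant, differed by -0.11 and -0.45 in the combined groups, where DESeq2 called 1 of the 5 lower, CIDEC, a lipid droplet protein, beside 0.616% of all genes. The 3 endothelial genes tested, led by PECAM1, had medians of -0.09, 0.19 and 0.06. In the comparison of the sexes, LYVE1, of the macrophage list, was the only list gene that edgeR called, beside 0.954% of all genes. It was lower in males by a log2 difference of -0.98 (edgeR adjusted p = 0.0386). Over fits that each dropped 1 pig, LYVE1 was called in 9 of 23, at edgeR adjusted p-values of 0.0118 to 0.0832. ADAR, of the type I interferon list, had an edgeR adjusted p of 0.0358, but its log2 difference of -0.35 missed the fold-change limit. All 7 macrophage genes and 25 of 28 type I interferon genes tested had lower values in males. Their median log2 differences were -0.42 and -0.29, beside -0.02 over all genes. Pig 49, a female whose interferon genes summed to 1454 CPM, entered this comparison, and the lists were not compared between the sexes without it. Genes of a list were measured in the same pigs, so these counts are not separate observations.

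A technical measure moved with the groups as well. Reads that mapped uniquely but to no annotated gene made up 56.8 ± 2.53% (SD, n = 7) of unique reads without cDDGS, and 62.5 ± 5.81% (n = 6), 56.8 ± 4.0% (n = 5) and 63.0 ± 5.05% (n = 5) in groups II, III and IV. With this share as a covariate, the log2 difference of group IV from group I was 0.55 for SP110 and 0.59 for SP140L, and that of group II was 0.76 and 0.54. For group III it was 0.47 and 0.38, the same as without the covariate. The mean share of group III equalled that of group I, so the covariate could hardly move this difference and nothing follows from it. Between groups IV and III, the log2 difference with the covariate was 0.11 for SP110 and 0.24 for SP140L, in place of 0.30 and 0.39.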

How the data were processed

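Total RNA of backfat from 23 pigs was sequenced from stranded, ribosome-depleted libraries. The RNA was partly degraded, which the paper puts down to a probable freezer problem, and its library kit was chosen for such RNA. The part of RNA quality in the differences between pigs and groups was not tested. The authors mapped reads with TopHat and counted uniquely mapped reads per Ensembl gene with HTSeq, and they deposited raw counts, without normalization. Of the alignments counted in a pig, which leave out unmapped reads, 39.6 to 58.4% fell in no gene. Another 18.1 to 26.4% mapped to several places and 0.226 to 0.506% were ambiguous, and these summary rows entered no library size. The genome release behind the identifiers is ambiguous in the sources used here, so no coordinates are given, and no sequence was printed because none was given with the data. The authors' own fold changes and p-values were not used.

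Counts were analysed in R 4.3.3 with edgeR 4.0.16 (TMM, filterByExpr, glmQLFit and glmQLFTest, Benjamini-Hochberg adjustment over all tested genes) on the pigs of the groups compared. Sex was tested in all pigs with diet as covariate. The limits for DEGs were 0.05 (adjusted p-value) and 1.3 (fold change). Alternatives were DESeq2 1.42.0, limma-voom with quality weights (limma 3.58.1), median-ratio normalization, no filter, at least 10 counts in every pig, all 23 pigs in 1 fit, sex or the share of reads outside genes as covariate, another pseudocount than 0.5, and leaving out each pig. Leaving out pig 49 for the gene lists, and each pig for LYVE1, was chosen after seeing the data. The tests were tested on simulated data. Figures were drawn with matplotlib 3.10.9.

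The genes and lists were chosen with earlier results of these data known. Named were SP110 and SP140L, other SAND domain genes, the nearest genes with a paired identifier on either side of SP110, and the 5 genes most like each in r. From each list, the most abundant genes with an identifier and every called gene were named. The list members PML, MX1, RSAD2, TRIM25, ADAR, IRF1, CIDEC and PPARG were named after their values were seen. Pigs were taken as separate animals. Over the 56 pairs of pigs that shared a diet, chi-square over its degrees of freedom was at least 5.42, so none was counted as a repeat.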

Additional observations from a re-analysis of the deposited data

Results flagged for a closer look

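Of 12 sets of values examined, SP110, SP140L and their log2 ratio in each of the 4 dietary groups, 3 held a pig that stood apart from the rest of its group by Dixon's criterion. Chance marks about 1 in 20 groups in this way. In group II, SP110 of pig 21, a female, was 14.07 CPM, and its gap to the next pig was 0.685 of the range of the group, above the critical value for 6 pigs. SP140L of this pig was also the lowest of its group. In group III, SP110 of pig 45, a male, was 11.59 CPM (gap 0.741 of the range), while its SP140L of 40.6 CPM was not the lowest of the group. In group I, the log2 ratio of SP140L to SP110 of pig 7, a female, was 1.62 (gap 0.692 of the range), with the lowest SP110 of the group at 11.8 CPM and an SP140L of 36.5 CPM. Pig 7 had 53 reads on SP110.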

How the results depend on the processing

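No planned setting of the fits, the ratio or the correlation (143 values) changed a direction, or the side of the threshold where a test was made. The contrasts with group I were not tested, and there the DESeq2 setting called SP110 in group II and both genes in group IV and in the combined groups. No paired analysis was possible because the replicate numbers only name the pigs and no pig belongs to more than 1 group. Leaving out each pig gave 343 values that kept direction and, where tested, side. The 10 that turned were differences that did not pass the test, and 1 relation, the correlation, lost significance. For SP140L, the sex difference turned to 0.01 without pig 41 (0.0068) or pig 49 (0.0061), in a range of -0.10 to 0.01, and the interaction to 0.0008 without pig 6 and 0.0396 without pig 49, in a range of -0.15 to 0.04. The log2 ratio between groups III and II turned to -0.0458 without pig 45 (range -0.05 to 0.20), and that between groups IV and III lay between -0.08 and 0.21 and turned without pigs 43, 46, 48, 49 or 55 (-0.0086, -0.0372, -0.0218, -0.021 and -0.0751). The correlation within groups ranged from 0.461, without pig 21 (p = 0.0913, permutation), to 0.678, without pig 45. The median of the interferon list in group IV turned to -0.026 without pig 49. Against group I, SP110 ranged over single pigs left out from 0.57 to 0.75 in group II, 0.39 to 0.63 in group III and 0.69 to 0.88 in group IV, and SP140L from 0.41 to 0.56, 0.29 to 0.43 and 0.64 to 0.89.

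The number of DEGs over all genes depended on the tool and on single pigs. In group II it was 3 with edgeR, from 0 to 95 over the alternatives and from 0 to 17 with 1 pig left out. In group IV edgeR gave 0 genes, or 116 without pig 53, and DESeq2 151. In the combined groups edgeR gave 0 genes, or 43 without pig 1 and 39 without pig 21, limma-voom 51 and DESeq2 160. Between groups III and II edgeR gave 0 genes, or up to 5 with 1 pig left out, and DESeq2 29. Between the sexes edgeR gave 98 genes, from 57 to 254 over the alternatives and from 33 to 187 with 1 pig left out. With 43 to 170 reads per pig, the counting error of SP110 in a single pig was 7.67 to 15.2%.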

Other observations

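An unnamed gene whose identifier, ENSSSCG00000016262, is numbered between those of SP110 and SP140L was looked at after its values were seen. It had 126 to 400 reads per pig and 55.3 ± 5.79 CPM (SD, n = 7) in group I. Its log2 difference was 0.20 in the combined groups (SE 0.09, edgeR adjusted p = 0.285) and 0.31 in group IV (edgeR adjusted p = 0.22), so it did not pass the test. Identifier numbers give no position, and whether this gene belongs to the speckled protein family was not examined.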
